A study of Mus musculus with 9 samples.

Results

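The 46 genes described here encode the DNA replication machinery: the proteins that license origins, unwind DNA, copy it and rebuild chromatin behind the fork. They were taken by gene symbol from a list of replication genes, and all 46 were found among the 16500 genes of the deposited expression table. The list was chosen with earlier results of these data known, so its shares beside those of all genes are not an independent test. The RNA was that of CD4+ T cells isolated from C57BL/6 mice and grown in serum-supplemented medium. All 9 libraries came from cells that had undergone retroviral transduction, 3 with a control vector (Control), 3 with NFAT2-CA and 3 with NFAT2-CARIT. NFAT2 is the calcium-responsive transcription factor encoded by Nfatc1. The CA form stays active without calcineurin, and the CARIT form carries further changes that disrupt its pairing with AP-1, the dimer of Fos and Jun proteins. The comparison between the vectors addresses which NFAT2 effects need AP-1, though their Nfatc1 RNA levels also differed, as given below. Both vectors force expression of an altered factor, and the age and number of the animals, the promoter in the vectors, the days in culture and any selection of transduced cells are not stated in the labels. Whether the libraries of a group are separate animals or cultures is not in the labels. The spread behind each p-value is therefore that between libraries and may be technical.

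Before S phase, the origin recognition complex (ORC1 to ORC6), CDC6 and CDT1 load the ring-shaped MCM2-7 helicase on DNA in an inactive form. The kinase CDC7 with its partner DBF4, and cyclin-dependent kinases, then recruit CDC45 and the GINS complex, which complete the active helicase. Primase and polymerase alpha start new strands, polymerases epsilon and delta extend them on the sliding clamp PCNA, and FEN1 and LIG1 join the fragments of the lagging strand. Resting T cells hold little of several of these proteins and make them when stimulation drives them into the cell cycle. Many of their genes are targets of the E2F transcription factors.

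For 37 of the 46 genes, a promoter window, taken here as the 250 bases before the transcription start, was present in the RefSeq promoter sequences used (GRCm38.p6). The windows of 4 helicase subunits are printed because they are the 2 with the highest and the 2 with the lowest log2 change with NFAT2-CA among the 6, and those of Lig1 and Chaf1b because they were the members with the largest rise and the largest fall with NFAT2-CA on the log2(CPM + 1) scale. They are written 5′ to 3′ on the strand of the gene, with capitals for the E2F words TTTCCCGC, TTTGGCGC, TTTCGCGC and TTTGCCGC, each searched on both strands.
Mcm5, chr8:75109259-75109508, plus strand: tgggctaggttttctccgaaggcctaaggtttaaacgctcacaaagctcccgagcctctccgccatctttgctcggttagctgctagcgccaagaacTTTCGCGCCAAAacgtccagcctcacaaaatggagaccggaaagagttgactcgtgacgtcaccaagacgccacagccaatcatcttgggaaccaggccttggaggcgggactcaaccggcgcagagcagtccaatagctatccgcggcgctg
Mcm6, chr1:128359706-128359955, minus strand: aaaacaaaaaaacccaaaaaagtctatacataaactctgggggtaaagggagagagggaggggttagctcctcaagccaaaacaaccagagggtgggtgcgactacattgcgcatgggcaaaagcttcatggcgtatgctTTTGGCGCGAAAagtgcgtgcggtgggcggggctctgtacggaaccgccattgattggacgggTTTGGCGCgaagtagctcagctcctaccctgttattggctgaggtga
Mcm2, chr6:88898781-88899030, minus strand: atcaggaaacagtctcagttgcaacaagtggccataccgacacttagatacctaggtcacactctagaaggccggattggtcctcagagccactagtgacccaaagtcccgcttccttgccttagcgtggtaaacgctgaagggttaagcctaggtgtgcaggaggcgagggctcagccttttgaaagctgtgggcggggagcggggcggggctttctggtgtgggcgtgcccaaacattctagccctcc
Mcm3, chr1:20820313-20820562, minus strand: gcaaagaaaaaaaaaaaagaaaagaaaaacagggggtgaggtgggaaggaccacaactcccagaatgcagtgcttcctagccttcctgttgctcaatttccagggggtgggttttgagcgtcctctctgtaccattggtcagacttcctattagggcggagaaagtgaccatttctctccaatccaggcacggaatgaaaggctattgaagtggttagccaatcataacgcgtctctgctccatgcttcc
Lig1, chr7:13276925-13277174, plus strand: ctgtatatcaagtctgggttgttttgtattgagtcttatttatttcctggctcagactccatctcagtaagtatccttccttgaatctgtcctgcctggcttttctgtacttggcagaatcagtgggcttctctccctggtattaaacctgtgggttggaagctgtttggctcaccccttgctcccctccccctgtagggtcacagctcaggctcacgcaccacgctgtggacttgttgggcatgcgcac
Chaf1b, chr16:93883651-93883900, plus strand: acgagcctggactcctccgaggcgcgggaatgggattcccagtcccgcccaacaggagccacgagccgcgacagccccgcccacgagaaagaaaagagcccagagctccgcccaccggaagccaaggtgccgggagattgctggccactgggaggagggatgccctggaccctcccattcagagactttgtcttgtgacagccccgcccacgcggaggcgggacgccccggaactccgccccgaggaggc
In the Mcm5 window, 2 E2F words overlapped, 146 and 142 bases before the start. The Mcm6 window held 3, at 103, 99 and 40 bases before the start, of which the first pair overlapped. None of the 4 words occurred in the windows of Mcm2, Mcm3, Lig1 or Chaf1b. Of the 37 windows, 8 (21.6%) held an E2F word, against 610 of 32536 mouse promoter windows of the same length (1.9%). The 2 sets are unlike. For each member the window closest to its listed start was taken, while the mouse set held every distinct window, not matched to a listed start. Members higher with NFAT2-CA had 23 of the 37 windows, 7 of them with an E2F word. The other members had 14, of which 1 held a word, that of Gins3, whose change did not pass with either vector. The windows of Cdc45, Mcm10, Clspn and Chaf1a, which rose strongly with both vectors, held none. Of the 37, 30 windows lay within 100 bases of the start listed in the files, and 5 of these held an E2F word. The windows of Cdc6, Mcm7 and Timeless lay wholly inside the listed gene, and those of Cdc6 and Mcm7 are among the 8 with an E2F word. The Lig1 window ended 108 bases before the listed start, and the bases between were not searched. The CCAAT box, searched as CCAAT on both strands, was present in 21 (56.8%) of the members' windows and 33.8% of all windows. The AP-1 word TGANTCA, in which N is any base, occurred in 1 (2.7%), that of Pold3, and in 6.7% of all windows. A match describes letters in the window and does not show binding, and the lack of a match does not show that a site is absent.

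Levels are in CPM, reads divided by the size of the library. The step between the lowest values put the depth at 19946000 to 38187600 reads, so that 1 CPM would stand for 19.9 to 38.2 reads. This depth is uncertain, since only 81.2% to 84.4% of values up to 1 CPM then lay near a whole read, below the 95% set beforehand. The labels' target gene, Nfatc1, was at 188 to 228 CPM in Control, 336 to 395 with NFAT2-CA and 240 to 253 with NFAT2-CARIT. Whether reads of the vector copy count toward these values is not stated. All 7 CD4 T cell markers were listed, with a summed level of 5058 to 5338, 5793 to 6267 and 5545 to 5589 CPM in Control, NFAT2-CA and NFAT2-CARIT. The sum hides opposite changes. In the same order, the means of Lat were 346, 141 and 130 CPM and those of Cd3e 420, 950 and 706 CPM. Summed levels of other cell types' markers moved with the vectors. For CD8 T cells (2 of 2 listed, nearly all from Cd8b1) they were 12.5 to 13.7, 28.4 to 30.8 and 22.6 to 24.0 CPM in the same order. The B cell genes Cd79a and Cd79b summed to 2.50 to 3.47, 0.629 to 1.23 and 0.733 to 1.60 CPM. Myeloid markers (2 of 5 listed; Lyz2, Csf1r and Adgre1 were not) gave 6.83 to 9.29, 1.41 to 1.84 and 1.62 to 2.05 CPM. That fall was Itgam (means 7.98, 0.701 and 1.34 CPM), while the means of Cd14 were 0.0284, 0.961 and 0.563 CPM. NK cell markers (2 of 4 listed) gave 3.82 to 4.37, 2.51 to 2.91 and 1.70 to 2.25 CPM. None of 5 erythroid markers was listed. Whether these shifts have a part in the results below was not tested.

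Replication genes were mostly higher with either vector than in Control, and more of them, by more, with NFAT2-CARIT. The summed level of the 46 genes was 1165 to 1200 CPM in the Control libraries, 1535 to 1672 with NFAT2-CA and 1834 to 1904 with NFAT2-CARIT, and the groups did not overlap. With NFAT2-CA, 30 of the 46 rose, 4 fell (Orc2, Mcm2, Pola2 and Chaf1b) and 12 did not pass (limma on log2(CPM + 1), adjusted p under 0.05 over 13096 genes). Of all genes tested in that comparison, 65.5% were called, 29.0% higher and 36.5% lower. With NFAT2-CARIT, 39 rose, 4 fell (Orc2, Pold2, Rpa1 and Chaf1b) and 3 (Mcm2, Gins3 and Pola2) did not pass, while 70.3% of all genes were called, 29.2% higher and 41.1% lower. Under TMM factors 5 further members passed as higher with NFAT2-CA: Prim2 (adjusted p = 0.015), Tipin (0.028), Fen1 (0.030), Pold3 (0.033) and Rpa3 (0.043). The median log2 change of the members was 0.55 with NFAT2-CA and 0.72 with NFAT2-CARIT, beside -0.06 and -0.09 over all genes tested.

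A rise of at least 1 on the log2 scale was called for 11 members with NFAT2-CA (8.17% of all genes) and 18 with NFAT2-CARIT (8.61% of all genes). The vector and Control libraries were fully separate for 34 members with NFAT2-CA and 43 with NFAT2-CARIT, where the shares over all genes tested were 68.3% and 73.1%. Both comparisons use the same 3 Control libraries. In bulk RNA, a larger share of cells in S phase and more RNA of these genes per cell cannot be told apart. Fold changes below are ratios of mean CPM, while log2 changes, given with their SE, are on the log2(CPM + 1) scale, which understates changes of low genes.

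**Figure D1:**
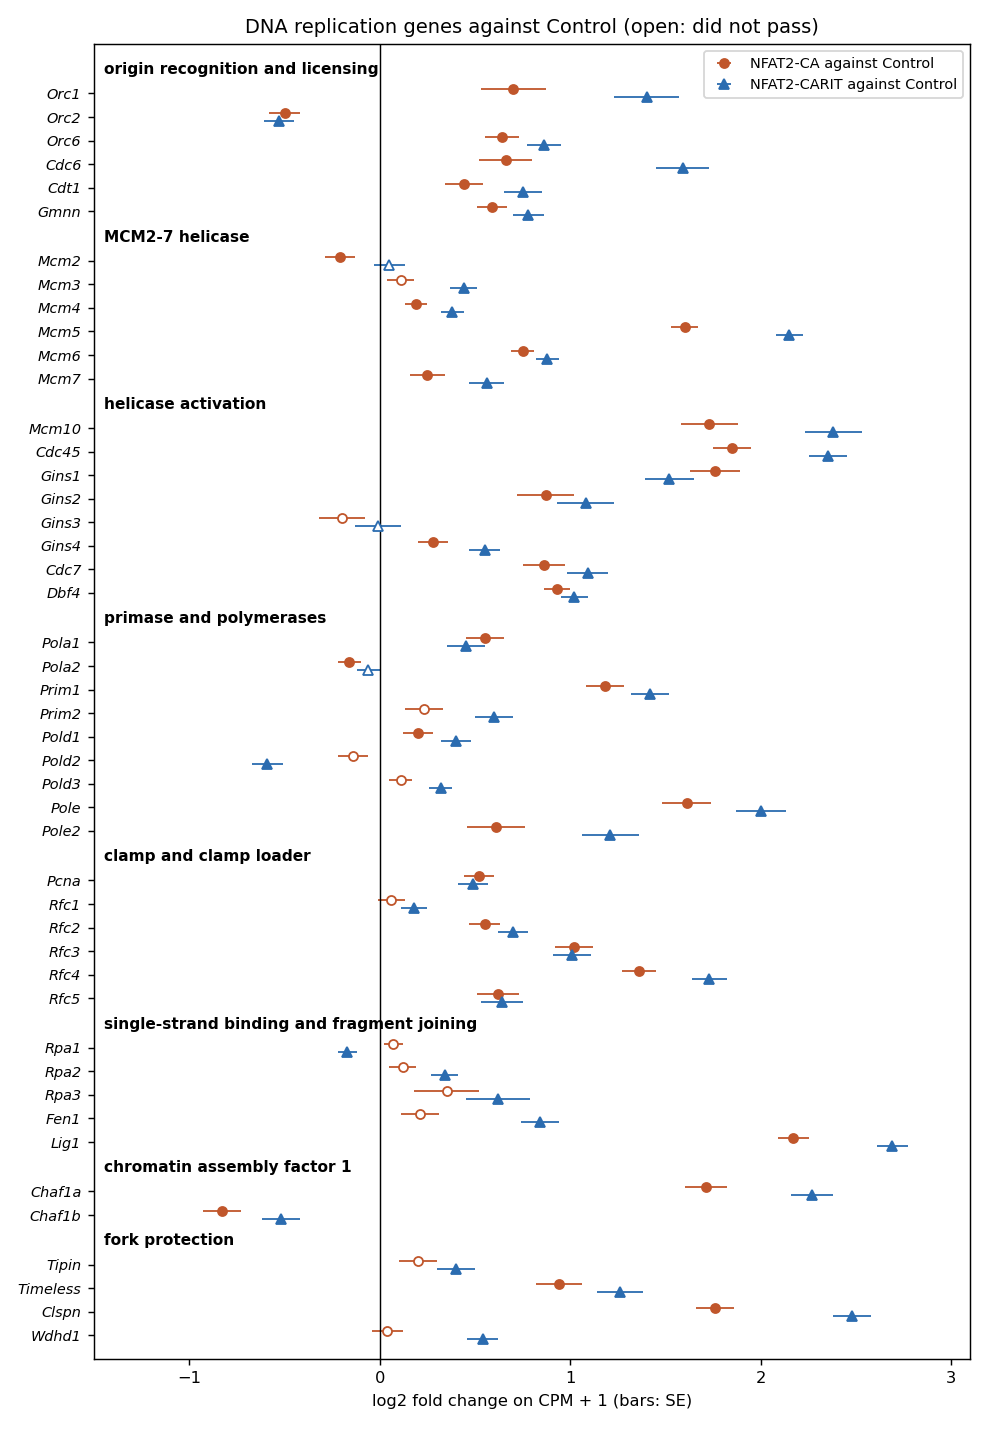
Log2 fold change on CPM + 1 (x axis, with SE) of each of the 46 replication genes (y axis, by role) for NFAT2-CA (circles) and NFAT2-CARIT (triangles) against Control, with open symbols for genes that did not pass the test. Filled symbols lie to the right of 0 for 30 genes with NFAT2-CA and 39 with NFAT2-CARIT, and to the left for 4 with each vector.

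Of the 6 origin recognition and licensing genes among the members, 5 rose with each vector and Orc2 fell. The other ORC subunits were not members. Orc3 and Orc4 did not pass with either vector, and Orc5 fell with both (log2 -0.29, limma adjusted p = 0.0059, and -0.38, limma adjusted p = 6.1e-04). Cdc6, the ATPase that loads MCM2-7 together with ORC, was at 1.74, 1.70 and 2.00 CPM in Control, 4.16, 3.56 and 2.74 with NFAT2-CA and 6.99, 7.96 and 7.42 with NFAT2-CARIT. Each group lay wholly above the one before. The mean was 1.92-fold that of Control with NFAT2-CA (log2 0.66 ± 0.14, limma adjusted p = 5.1e-04) and 4.11-fold with NFAT2-CARIT (1.59 ± 0.14, adjusted p = 3.3e-08). Orc1, the large ATPase subunit of ORC, was lower still: 0.468, 0.725 and 0.667 CPM in Control, 1.59, 1.97 and 1.35 with NFAT2-CA and 4.21, 2.99 and 2.71 with NFAT2-CARIT. Again no group overlapped another. The log2 change was 0.70 ± 0.17 with NFAT2-CA (adjusted p = 0.0015) and 1.40 ± 0.17 with NFAT2-CARIT (adjusted p = 1.3e-06). Orc1 shares 11.9% of its exon bases with the gene model Gm12743, listed at group means of 0.26, 0.242 and 0.497 CPM.

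Cdt1, which brings MCM2-7 to the origin, and its inhibitor Gmnn (geminin) rose together. Cdt1 was at 31.5, 30.0 and 26.7 CPM in Control, 46.5, 41.9 and 33.5 with NFAT2-CA and 51.2, 49.2 and 49.6 with NFAT2-CARIT (1.38-fold and 1.70-fold Control). Gmnn was at 13.6, 13.6 and 14.5 CPM in Control, 23.1, 21.1 and 19.9 with NFAT2-CA and 26.2, 25.3 and 22.3 with NFAT2-CARIT (1.54-fold and 1.77-fold). For both genes every library of either vector lay above every Control library. Orc6, another ORC subunit, rose 1.61-fold and 1.90-fold. Orc2, a core ORC subunit, was at 26.7, 26.3 and 29.7 CPM in Control, above all libraries with NFAT2-CA (21.1, 19.0 and 17.5) and with NFAT2-CARIT (17.7, 19.2 and 19.5). Its log2 change was -0.50 ± 0.08 (adjusted p = 7.3e-05) and -0.53 ± 0.08 (adjusted p = 3.9e-05). Orc2 shares 24.0% of its exon bases with Nif3l1, which also fell (log2 -0.54 and -0.61), and whether reads were counted by strand is not stated.

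The 6 subunits of the MCM2-7 ring, which work in equal numbers in the protein complex, did not move in parallel. Their summed level was 337 ± 16.4 CPM in Control, 464 ± 19.9 with NFAT2-CA and 551 ± 20.1 with NFAT2-CARIT (SD, n = 3). Mcm5 was at 16.2, 15.2 and 15.2 CPM in Control, 50.2, 52.2 and 45.7 with NFAT2-CA and 76.7, 71.1 and 69.1 with NFAT2-CARIT. The groups were far apart beside their spread: 3.18-fold Control with NFAT2-CA (log2 1.60 ± 0.07, adjusted p = 6.6e-12) and 4.65-fold with NFAT2-CARIT (2.15 ± 0.07, adjusted p = 1.5e-13). Mcm6 was at 118, 107 and 106 CPM in Control, 192, 190 and 176 with NFAT2-CA and 212, 206 and 194 with NFAT2-CARIT, and every library with a vector exceeded every Control library. Its means were 1.68-fold and 1.85-fold Control (adjusted p = 2.4e-08 and 2.6e-09).

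Mcm2 was the exception among the subunits. It was at 36.7, 39.9 and 31.6 CPM in Control, 32.9, 29.9 and 30.1 with NFAT2-CA and 39.5, 35.0 and 37.4 with NFAT2-CARIT, so both vector groups overlapped Control. The fall with NFAT2-CA was small (log2 -0.21 ± 0.08, adjusted p = 0.036) and the change with NFAT2-CARIT did not pass (0.05 ± 0.08, adjusted p = 0.61). The fall did not pass under TMM factors (adjusted p = 0.13) or quantile normalization (0.089), nor without Control replicate 1 (0.091) or 2 (0.19) or NFAT2-CA replicate 2 (0.10) or 3 (0.089).

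Mcm3 was at 67.4, 63.8 and 56.2 CPM in Control, 65.6, 71.8 and 65.0 with NFAT2-CA and 90.7, 82.6 and 82.0 with NFAT2-CARIT. Only the NFAT2-CARIT libraries of Mcm3 stood clear of Control (1.36-fold, adjusted p = 4.8e-05), while the NFAT2-CA value of 0.11 ± 0.07 did not pass (adjusted p = 0.19). Mcm4 was at 90.9, 89.8 and 85.4 CPM in Control, 107, 98.7 and 98.9 with NFAT2-CA and 114, 117 and 116 with NFAT2-CARIT. The 3 groups of Mcm4 did not overlap, with rises of 1.14-fold and 1.31-fold (adjusted p = 0.0068 and 1.4e-05). Mcm7 was at 21.8, 25.1 and 25.2 CPM in Control, 28.9, 32.0 and 25.5 with NFAT2-CA and 39.8, 32.3 and 35.8 with NFAT2-CARIT. Its lowest NFAT2-CA library lay just above the highest Control library. The rise of Mcm7 was 1.20-fold with NFAT2-CA (adjusted p = 0.030) and 1.50-fold with NFAT2-CARIT (adjusted p = 6.0e-05). With NFAT2-CA it did not pass without Control replicate 1 (adjusted p = 0.13) or NFAT2-CA replicate 1 (0.071) or 2 (0.15), and 10.8% of its exon bases are shared with Ap4m1. Ap4m1 rose as well (log2 0.29, adjusted p = 0.0024, and 0.17, adjusted p = 0.047).

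Per kilobase of exon, Mcm5 was the lowest subunit in Control at 4.49 ± 0.165 CPM per kb, below Mcm7 at 8.12 ± 0.657 and Mcm2 at 10.7 ± 1.24 (SD, n = 3). With NFAT2-CA it stood at 14.3 ± 0.965 CPM per kb, above Mcm2 at 9.18 ± 0.494 and Mcm7 at 9.73 ± 1.09, and with NFAT2-CARIT at 20.9 ± 1.14, above Mcm2 at 11.1 ± 0.669 and Mcm7 at 12.1 ± 1.25. Mcm2 and Mcm7 did not differ beyond their spread in either vector group. Mcm6 was the highest in mean in all 3 groups, at 25.2 ± 1.58, 42.5 ± 2.02 and 46.7 ± 2.13 CPM per kb, though in Control it did not differ from Mcm4 (24.7 ± 0.811) beyond the spread. The share of Mcm5 in the per-kilobase sum of the 6 subunits was 4.79% ± 0.158 in Control, 11.3% ± 0.326 with NFAT2-CA and 13.8% ± 0.235 with NFAT2-CARIT. The highest subunit was 5.65 ± 0.136 times the lowest in Control, 4.69 ± 0.201 times with NFAT2-CA and 4.23 ± 0.283 times with NFAT2-CARIT, and the Control libraries lay above all libraries of either vector.

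**Figure D2:**
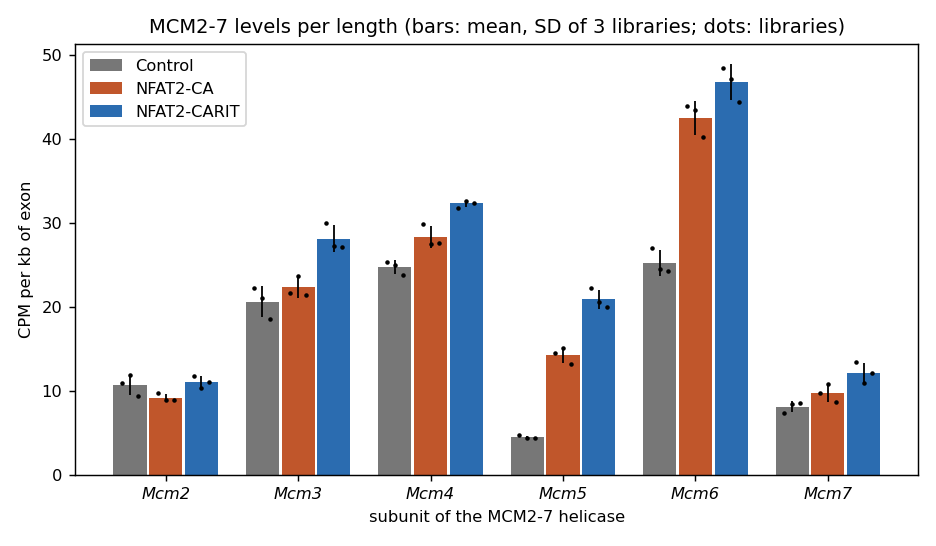
CPM per kb of exon (y axis) of the 6 MCM2-7 subunits (x axis) in Control, NFAT2-CA and NFAT2-CARIT, with bars for means, error bars for SD and dots for the 3 libraries. Mcm5 is the lowest subunit in Control at 4.49 CPM per kb and passes Mcm2 and Mcm7 with either vector, at 14.3 and 20.9.

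Helicase activation genes had the highest median change of the 8 role groups, 0.90 with NFAT2-CA and 1.09 with NFAT2-CARIT on the log2 scale, and 7 of 8 rose with each vector. Cdc45, the helicase component whose loading starts unwinding, was at 3.31, 3.78 and 3.04 CPM in Control, 15.4, 15.2 and 13.7 with NFAT2-CA and 23.6, 20.8 and 19.5 with NFAT2-CARIT. No group overlapped another, and the means were 4.37-fold Control (log2 1.85 ± 0.10, adjusted p = 1.5e-10) and 6.31-fold (2.35 ± 0.10, adjusted p = 6.5e-12). Mcm10, which helps the assembled helicase to start, was at 2.38, 3.40 and 1.79 CPM in Control, 9.63, 11.3 and 10.7 with NFAT2-CA and 15.4, 16.2 and 19.6 with NFAT2-CARIT. Its groups were as clearly apart, at 4.17-fold (adjusted p = 3.2e-08) and 6.77-fold (adjusted p = 5.3e-10).

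The 4 GINS subunits differed among themselves. Gins1 was at 1.61, 1.32 and 1.46 CPM in Control, 7.62, 7.54 and 6.91 with NFAT2-CA and 7.17, 5.02 and 6.21 with NFAT2-CARIT. Both vector groups of Gins1 lay above Control, at 5.02-fold (log2 1.76 ± 0.13, adjusted p = 6.5e-09) and 4.19-fold (1.52 ± 0.13, adjusted p = 3.3e-08), and they overlapped each other. Gins2 rose 1.83-fold and 2.14-fold and Gins4 1.22-fold and 1.48-fold. Gins2 shares 70.7% of its exon bases with Gse1, which fell with both vectors (log2 -0.52 and -0.60), so its level is uncertain. Gins3 did not pass with either vector, at -0.20 ± 0.12 (adjusted p = 0.14) and -0.01 ± 0.12 (adjusted p = 0.95). The kinase gene Cdc7 rose 1.91-fold and 2.26-fold, and Dbf4, its activating subunit, 1.93-fold and 2.05-fold.

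**Figure D3:**
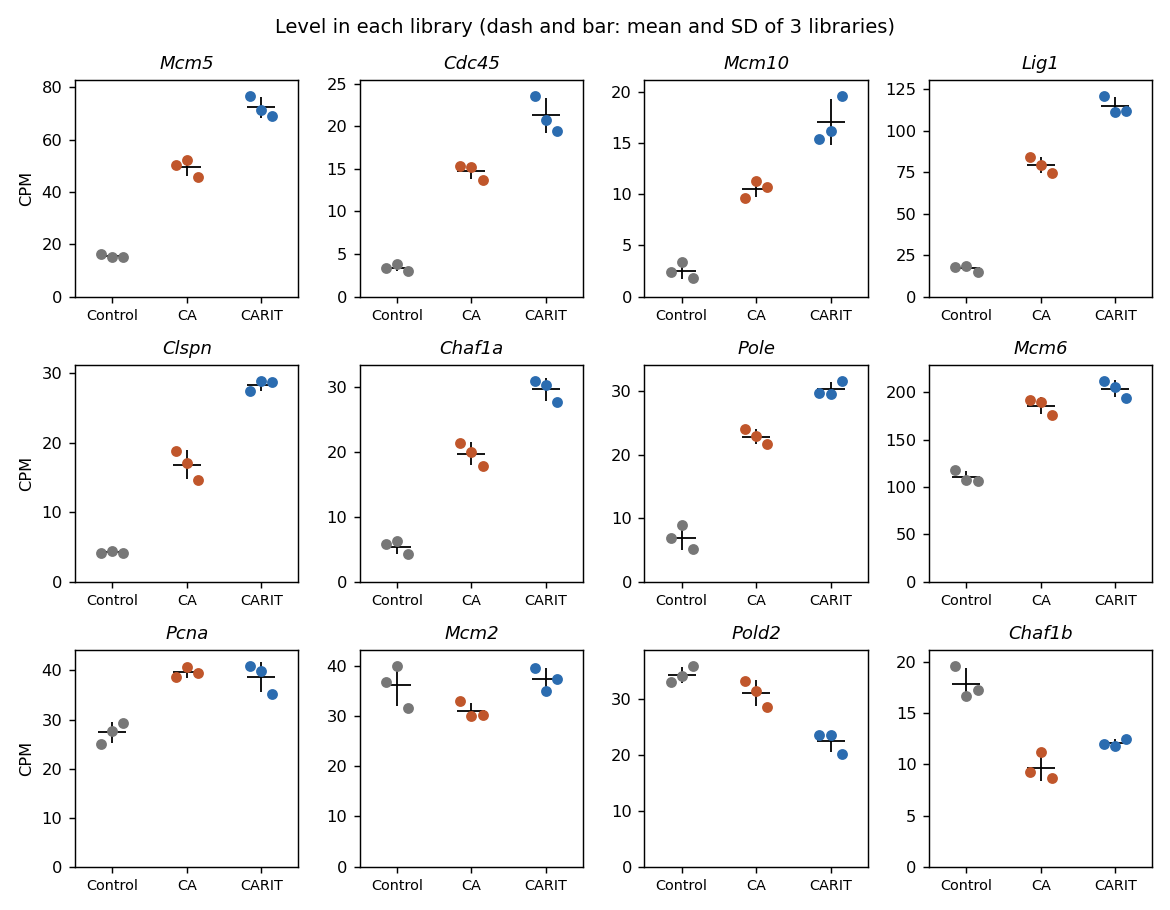
CPM (y axis) in each of the 3 libraries of Control, NFAT2-CA and NFAT2-CARIT (x axis) for 12 replication genes, with the mean as a dash and the SD as a bar. Mcm5, Cdc45, Mcm10, Lig1, Clspn, Chaf1a and Pole step upward from Control to NFAT2-CA to NFAT2-CARIT with no overlap, Pold2 is lowest with NFAT2-CARIT, and Chaf1b is highest in Control.

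Among the 9 primase and polymerase genes, Pole rose most with either vector, by fold and on the log2 scale. Pole, the catalytic subunit of the leading-strand polymerase epsilon, was at 6.88, 8.85 and 5.08 CPM in Control, 24.0, 22.9 and 21.6 with NFAT2-CA and 29.7, 29.5 and 31.6 with NFAT2-CARIT. The 3 groups did not overlap, at 3.29-fold Control (log2 1.61 ± 0.13, adjusted p = 5.5e-08) and 4.36-fold (2.00 ± 0.13, adjusted p = 4.0e-09). Pole2, its second subunit, was at 1.61, 1.48 and 2.08 CPM in Control, 3.35, 2.80 and 3.28 with NFAT2-CA and 6.01, 4.16 and 5.85 with NFAT2-CARIT. It rose 1.82-fold and 3.09-fold (adjusted p = 0.0021 and 2.3e-06), and it shares 14.4% of its exon bases with a gene model on the same strand, Gm49384. Group means of Gm49384 were 0.917, 2.37 and 2.97 CPM, with log2 changes of 0.82 (adjusted p = 0.05) and 1.11 (adjusted p = 0.012). Prim1, which makes the RNA primer, was at 8.16, 8.82 and 10.5 CPM in Control, 23.6, 22.5 and 19.7 with NFAT2-CA and 28.7, 23.9 and 25.9 with NFAT2-CARIT. Every vector library of Prim1 exceeded Control, by 2.40-fold and 2.85-fold in the mean (adjusted p = 4.0e-08 and 3.3e-09).

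Pold2, the regulatory subunit that ties polymerase delta together, went the other way. It was at 33.0, 34.1 and 35.9 CPM in Control, 33.2, 31.5 and 28.6 with NFAT2-CA and 23.5, 23.6 and 20.2 with NFAT2-CARIT. The NFAT2-CA libraries overlapped Control (log2 -0.14 ± 0.08, adjusted p = 0.14), whereas all 3 NFAT2-CARIT libraries lay below it (-0.59 ± 0.08, adjusted p = 5.5e-06). Pold1, the catalytic subunit of the same enzyme, rose 1.15-fold with NFAT2-CA (adjusted p = 0.047) and 1.33-fold with NFAT2-CARIT (adjusted p = 4.5e-04). Pold3, a further subunit, rose 1.25-fold with NFAT2-CARIT (adjusted p = 3.2e-04) and had a value of 0.11 ± 0.06 with NFAT2-CA (adjusted p = 0.13). The delta subunit gene Pold4, not a member, fell with NFAT2-CA (log2 -0.18, limma adjusted p = 0.020) and did not pass with NFAT2-CARIT (-0.11, limma adjusted p = 0.14). Of the epsilon subunit genes that were not members, Pole3 rose with both vectors (log2 1.22 and 1.48). Pole4 fell with both (log2 -0.38, limma adjusted p = 0.0028, and -0.51, limma adjusted p = 1.9e-04).

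Pola1, the catalytic subunit of polymerase alpha, rose 1.52-fold and 1.41-fold. Its partner Pola2 fell slightly with NFAT2-CA (log2 -0.16 ± 0.06, adjusted p = 0.028) and did not pass with NFAT2-CARIT (-0.06 ± 0.06, adjusted p = 0.38). Prim2, the large primase subunit, rose 1.56-fold with NFAT2-CARIT and stood at 0.23 ± 0.10 with NFAT2-CA (adjusted p = 0.054). The NFAT2-CA call of Pold1 did not pass without any 1 of Control replicates 1 and 3, NFAT2-CA replicates 1 and 2 and NFAT2-CARIT replicates 1 and 2 (adjusted p up to 0.25), nor with no filter on low values (0.059) or on only the 6 libraries compared (0.058). That of Pola2 did not pass without Control replicate 1 or 3 or NFAT2-CA replicate 1 or 2 (adjusted p up to 0.079), nor under TMM factors (0.16).

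The clamp gene Pcna was at 25.1, 27.7 and 29.3 CPM in Control, 38.7, 40.8 and 39.4 with NFAT2-CA and 40.9, 39.9 and 35.3 with NFAT2-CARIT. Both vector groups lay above Control to a like extent, 1.45-fold (adjusted p = 1.5e-05) and 1.41-fold (adjusted p = 2.7e-05), and overlapped each other. The genome also holds processed copies of Pcna, so reads could have been split among them. The clamp loader, replication factor C, opens PCNA and closes it around DNA. Rfc4 was at 5.45, 5.65 and 6.62 CPM in Control, 17.7, 16.9 and 15.4 with NFAT2-CA and 22.9, 21.9 and 20.9 with NFAT2-CARIT, with no overlap between groups (2.82-fold and 3.70-fold, adjusted p = 2.5e-09 and 9.6e-11). Rfc3 was at 6.88, 6.62 and 7.67 CPM in Control, 17.4, 14.8 and 14.0 with NFAT2-CA and 16.2, 14.0 and 15.3 with NFAT2-CARIT (2.18-fold and 2.15-fold). Rfc2 was at 27.3, 30.2 and 33.6 CPM in Control, 43.5, 48.6 and 42.2 with NFAT2-CA and 51.0, 50.7 and 47.5 with NFAT2-CARIT (1.48-fold and 1.64-fold). In both genes all vector libraries exceeded all Control libraries. Rfc5 rose 1.61-fold and 1.64-fold.

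Rfc1, the largest subunit of the loader, had a value of 0.06 ± 0.07 with NFAT2-CA (adjusted p = 0.43) and rose 1.13-fold with NFAT2-CARIT (adjusted p = 0.027). That call did not pass without Control replicate 3 (adjusted p = 0.12), NFAT2-CARIT replicate 1 (0.050) or NFAT2-CARIT replicate 3 (0.089). Exon bases are shared with another gene for Rfc2 (19.1%, Lat2), Rfc4 (13.4%, Eif4a2) and Rfc5 (15.4%, Wsb2). Wsb2 itself rose with both vectors (log2 0.64 and 0.81). Eif4a2 had group means of 580, 642 and 669 CPM, far above those of Rfc4. It rose with NFAT2-CARIT (log2 0.21, limma adjusted p = 0.016) and did not pass with NFAT2-CA (0.15, limma adjusted p = 0.079).

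Of the 5 genes of single-strand binding and fragment joining, 1 (Lig1) rose with NFAT2-CA, while 4 rose and 1 fell with NFAT2-CARIT. Lig1, the ligase that seals lagging-strand fragments, was at 17.6, 18.3 and 15.0 CPM in Control, 84.2, 79.2 and 74.4 with NFAT2-CA and 121, 111 and 112 with NFAT2-CARIT. These 3 groups were separated by far more than their spread, and on the log2(CPM + 1) scale the changes of Lig1 were the highest of all 46 members with either vector. With NFAT2-CA that order depends on the scale: the fold of Gins1 (5.02) exceeded that of Lig1 (4.68), as did its log2 change at a pseudocount of 0.1 (2.26 against 2.22). The means were 4.68-fold Control with NFAT2-CA (log2 2.17 ± 0.08, adjusted p = 4.2e-13) and 6.78-fold with NFAT2-CARIT (2.69 ± 0.08, adjusted p = 2.4e-14). Its printed promoter window held neither an E2F word nor a CCAAT box, but the 108 bases next to the listed start were not searched.

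Fen1, the nuclease that trims the flap before ligation, was at 9.85, 10.2 and 10.2 CPM in Control, 10.9, 13.2 and 11.4 with NFAT2-CA and 20.6, 18.8 and 17.1 with NFAT2-CARIT. The groups of Fen1 did not overlap, but the NFAT2-CA value of 0.21 ± 0.10 did not pass (adjusted p = 0.068) while the NFAT2-CARIT rise of 1.87-fold did (adjusted p = 9.3e-07). Of the exon bases of Fen1, 78.8% are shared with the antisense gene Gm10143, listed at group means of 0.554, 0.861 and 1.19 CPM.

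Replication protein A, which coats single-stranded DNA, has 3 subunits. Rpa3 was at 3.78, 5.92 and 7.29 CPM in Control, 6.51, 7.75 and 7.59 with NFAT2-CA and 9.90, 9.53 and 7.62 with NFAT2-CARIT. The NFAT2-CA libraries of Rpa3 overlapped Control (0.35 ± 0.17, adjusted p = 0.084) and the NFAT2-CARIT rise was 1.59-fold (adjusted p = 0.0044). Rpa2 rose 1.28-fold with NFAT2-CARIT and stood at 0.12 ± 0.07 with NFAT2-CA (adjusted p = 0.15). Rpa1, the large subunit, was at 171, 169 and 165 CPM in Control, 171, 184 and 175 with NFAT2-CA and 145, 154 and 148 with NFAT2-CARIT. All NFAT2-CARIT libraries of Rpa1 lay below all others (log2 -0.17 ± 0.05 against Control, adjusted p = 0.0089), a fall that did not pass under TMM factors (-0.09, adjusted p = 0.23).

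The subunits of chromatin assembly factor 1, which places histones on new DNA, moved in opposite directions. Chaf1a, the large subunit, was at 5.80, 6.24 and 4.21 CPM in Control, 21.4, 20.1 and 17.8 with NFAT2-CA and 31.0, 30.4 and 27.7 with NFAT2-CARIT. Its groups were well apart, at 3.65-fold (log2 1.71 ± 0.11, adjusted p = 1.7e-09) and 5.49-fold (2.27 ± 0.11, adjusted p = 3.7e-11). Chaf1b, the middle subunit, was at 19.6, 16.7 and 17.3 CPM in Control, 9.22, 11.2 and 8.64 with NFAT2-CA and 12.0, 11.8 and 12.5 with NFAT2-CARIT. Every vector library of Chaf1b lay below every Control library (log2 -0.83 ± 0.10, adjusted p = 2.5e-06, and -0.52 ± 0.10, adjusted p = 2.4e-04). Chaf1a shares 33.6% of its exon bases with Ubxn6, whose own change did not pass with either vector (log2 0.16 and 0.07).

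Fork protection genes stabilise a fork and relay signals when it stalls. Clspn (claspin), which carries the signal from the kinase ATR to CHK1, was at 4.12, 4.44 and 4.17 CPM in Control, 18.8, 17.1 and 14.6 with NFAT2-CA and 27.4, 28.9 and 28.7 with NFAT2-CARIT. It stepped up without overlap, 3.97-fold (log2 1.76 ± 0.10, adjusted p = 1.1e-10) and 6.68-fold (2.48 ± 0.10, adjusted p = 1.3e-12). Timeless was at 8.80, 8.22 and 6.75 CPM in Control, 18.8, 16.1 and 13.5 with NFAT2-CA and 20.4, 21.0 and 19.3 with NFAT2-CARIT, again without overlap (2.04-fold and 2.56-fold, adjusted p = 2.4e-06 and 6.2e-08). Its binding partner Tipin had a value of 0.20 ± 0.10 with NFAT2-CA (adjusted p = 0.073) and rose 1.34-fold with NFAT2-CARIT (adjusted p = 0.0016). Wdhd1, the adaptor that links polymerase alpha to the helicase, was at 14.9, 14.8 and 16.5 CPM in Control, 17.1, 15.4 and 14.9 with NFAT2-CA and 21.5, 22.9 and 23.9 with NFAT2-CARIT. Only its NFAT2-CARIT libraries stood above Control (1.48-fold, adjusted p = 2.9e-05), and the NFAT2-CA value was 0.04 ± 0.08 (adjusted p = 0.73).

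The comparison of NFAT2-CARIT with NFAT2-CA tests the difference between the vectors itself. Nfatc1 RNA was at 336 to 395 CPM with NFAT2-CA and 240 to 253 with NFAT2-CARIT. Whether that difference has a part in the results here was not tested. Of the 46 genes, 24 were higher with NFAT2-CARIT, 2 were lower (Pold2 and Rpa1) and 20 did not pass, while 28.6% of all genes tested were called, 11.9% higher and 16.7% lower. The median of the members was 0.24 on the log2 scale and that of all genes -0.03, and no member differed by as much as 1 on that scale. In 33 members the libraries of the 2 vectors did not overlap, 31 of them with NFAT2-CARIT above, where 44.0% of all genes did not overlap. When each library was left out in turn, 13 of the 24 kept the call in all 9 fits: Orc1, Cdc6, Mcm3, Mcm5, Mcm10, Cdc45, Pole2, Rfc4, Fen1, Lig1, Chaf1a, Clspn and Wdhd1. Both lower calls were kept as well.

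Cdc6 differed most between the vectors. It was 2.14-fold higher with NFAT2-CARIT than with NFAT2-CA (log2 0.92 ± 0.14, limma adjusted p = 1.2e-04) and Orc1 2.02-fold (0.70 ± 0.17, adjusted p = 0.0048). Clspn was 1.68-fold higher (0.72 ± 0.10, adjusted p = 4.0e-05), Mcm10 1.62-fold (0.65 ± 0.15, adjusted p = 0.0035) and Pole2 1.70-fold (0.60 ± 0.15, adjusted p = 0.0066). Fen1 (1.59-fold, 0.63 ± 0.10, adjusted p = 1.5e-04) and Wdhd1 (1.44-fold, 0.50 ± 0.08, adjusted p = 3.4e-04) are genes for which NFAT2-CA against Control had not passed. Lig1 was 1.45-fold higher (0.53 ± 0.08, adjusted p = 7.8e-05), Mcm5 1.47-fold (0.54 ± 0.07, adjusted p = 2.8e-05), Chaf1a 1.50-fold (0.57 ± 0.11, adjusted p = 0.0016) and Cdc45 1.44-fold (0.50 ± 0.10, adjusted p = 0.0019). In the other direction, Pold2 fell by 0.46 on the log2 scale (SE 0.08, adjusted p = 5.0e-04) and Rpa1 by 0.24 (SE 0.05, adjusted p = 0.0031).

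The other 11 genes called higher (Cdt1, Mcm2, Mcm4, Mcm7, Gins4, Prim2, Pold3, Pole, Rpa2, Chaf1b and Timeless) had log2 differences of 0.19 (Mcm4) to 0.39 (Pole), and each call did not pass without at least 1 library. Leaving out NFAT2-CA replicate 3 or NFAT2-CARIT replicate 1 took the count of higher members from 24 to 15. Chaf1b, lower than Control with both vectors, was 1.25-fold higher with NFAT2-CARIT than with NFAT2-CA (0.30 ± 0.10, adjusted p = 0.036); that call did not pass without any 1 of the 3 NFAT2-CARIT libraries (adjusted p = 0.075, 0.071 and 0.095), nor without NFAT2-CA replicate 1 (0.11) or 3 (0.13). The 20 genes that did not pass include Pcna (-0.03 ± 0.08, adjusted p = 0.78), Rfc3 (-0.02 ± 0.10, adjusted p = 0.93), Mcm6 (0.13 ± 0.06, adjusted p = 0.12) and Gins1 (-0.24 ± 0.13, adjusted p = 0.20), all of which rose against Control with both vectors.

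**Figure D4:**
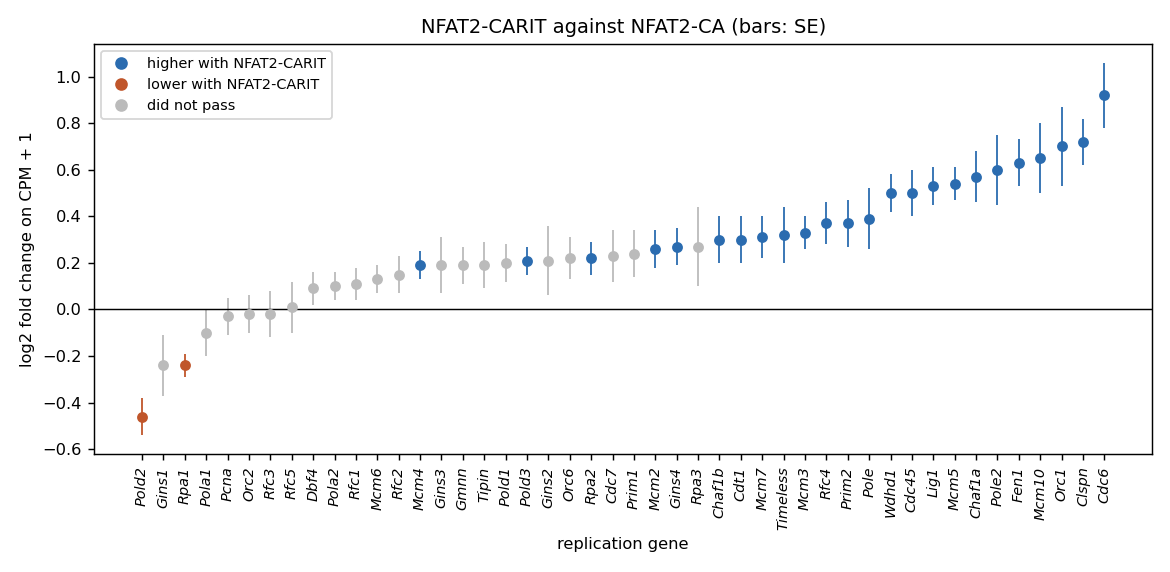
Log2 fold change on CPM + 1 (y axis, with SE) of NFAT2-CARIT against NFAT2-CA for the 46 replication genes, ordered by size (x axis), coloured by the test's call. The 24 genes called higher reach 0.92 (Cdc6), and Pold2 and Rpa1 are the 2 called lower.

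The authors' deposited table, made with DESeq2, called fewer of these genes at a step-up FDR under 0.05. The authors' deposited table called higher 17 of the 46 with NFAT2-CA and 25 with NFAT2-CARIT, none as lower with either, and none as different between the vectors. Over all its genes, the authors' deposited table called 11.4% higher and 10.4% lower with NFAT2-CA, 12.1% and 13.5% with NFAT2-CARIT, and 1.19% and 1.65% between the vectors. All 17 and all 25 were also called by limma. For Lig1, the authors' deposited table gives a log2 ratio of 2.23 with NFAT2-CA (FDR 2.6e-35), 2.76 with NFAT2-CARIT (FDR 2.3e-54) and 0.53 between the vectors (FDR 0.059). Between the vectors, that FDR is the lowest of the 46 members. It is 0.14 there for Mcm5, 0.80 for Cdc6, 0.69 for Fen1, 0.85 for Wdhd1 and 0.95 for Mcm10. For Chaf1b, the authors' deposited table gives -0.89 (FDR 0.060) and -0.56 (FDR 0.28) against Control.

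Other genes of the pathway were read from 4 further lists. Of 24 tested origin and fork factors beyond the members, 10 rose and 8 fell with NFAT2-CA, and 13 rose and 8 fell with NFAT2-CARIT (median log2 0.13 and 0.26). The shares higher were 41.7% and 54.2%, against 29.0% and 29.2% of all genes, and the 8 lower were no larger a share than the 36.5% and 41.1% of all genes. Ticrr (treslin), which works with TOPBP1 to load CDC45, was at 11.7, 9.73 and 6.58 CPM in Control, 50.3, 51.1 and 54.1 with NFAT2-CA and 59.8, 59.8 and 59.6 with NFAT2-CARIT. Top2a, the topoisomerase that untangles replicated DNA, was at 193, 200 and 172 CPM in Control, 829, 813 and 749 with NFAT2-CA and 960, 970 and 976 with NFAT2-CARIT. In both genes the vector libraries were far above Control (log2 2.39 and 2.59 for Ticrr, 2.08 and 2.36 for Top2a). A 25th gene, Dna2, was too low to be tested.

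Among 12 genes of licensing control and the S phase kinases, 8 rose with each vector while 3 fell with NFAT2-CA and 2 with NFAT2-CARIT (median log2 0.44 and 0.53). The share higher was 66.7% with each vector, beside the same 29.0% and 29.2%. Ccna2, the S phase cyclin A, was at 24.7, 22.0 and 22.5 CPM in Control, 161, 154 and 136 with NFAT2-CA and 165, 164 and 172 with NFAT2-CARIT (log2 2.65 and 2.80). Cdk1, one of its kinase partners, was at 13.0, 13.4 and 12.9 CPM in Control, 68.9, 67.1 and 61.5 with NFAT2-CA and 81.2, 82.1 and 73.4 with NFAT2-CARIT (log2 2.24 and 2.50). Cdk2, its S phase partner, fell with NFAT2-CA (log2 -0.21, limma adjusted p = 0.0054) and did not pass with NFAT2-CARIT (0.00, limma adjusted p = 0.98). Ccne1, the cyclin E that acts at S phase entry, lay below Control with both vectors (log2 -0.94 ± 0.10, adjusted p = 7.2e-07, and -0.49 ± 0.10, adjusted p = 5.8e-04). It was picked out after its values were seen.

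Of 13 replication-coupled chromatin factors, 7 rose and 3 fell with NFAT2-CA, and 8 rose and 2 fell with NFAT2-CARIT (median log2 0.35 and 0.47). The shares called higher were 53.8% and 61.5%, against 29.0% and 29.2% of all genes. The leading genes were Uhrf1, which guides DNA methylation to new strands (log2 1.65 and 1.93), and Pclaf, a PCNA-binding factor (1.57 and 1.80). Of 10 ATR checkpoint genes, 4 rose and 1 fell with NFAT2-CA, and 6 rose and 2 fell with NFAT2-CARIT (median log2 0.07 and 0.28). The shares called higher were 40.0% and 60.0%, against the same 29.0% and 29.2% of all genes. Wee1, the kinase that restrains CDK1 (1.78 and 1.99), and Chek1, the target of claspin signalling (1.36 and 1.92), changed most.

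**Figure D5:**
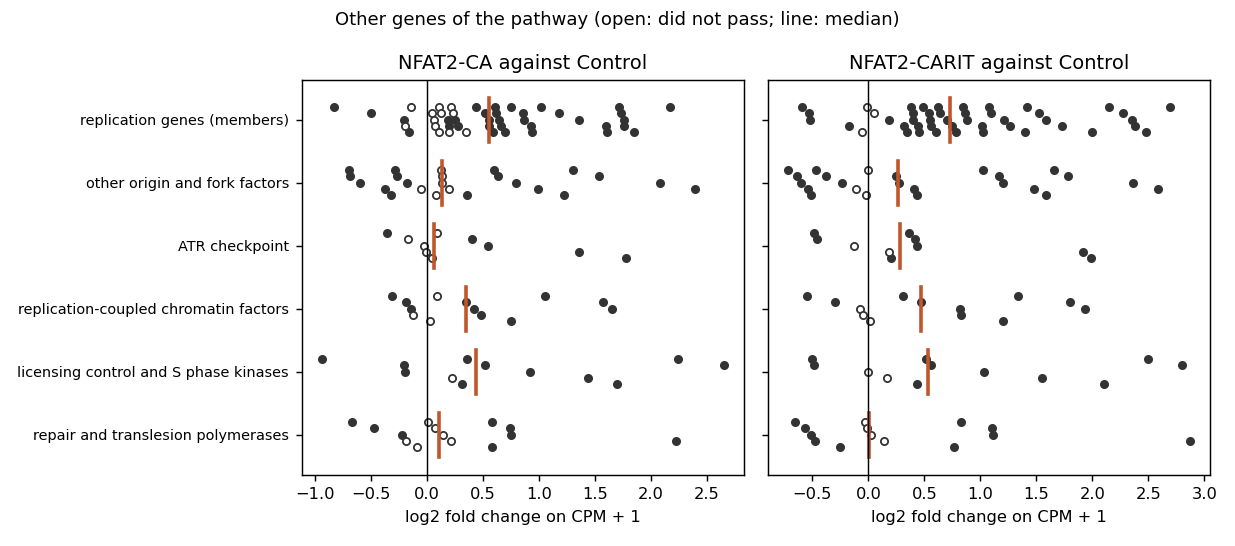
Log2 fold change on CPM + 1 (x axis) of each tested gene in the 46 replication genes and 5 further lists (y axis) for NFAT2-CA (left) and NFAT2-CARIT (right) against Control, with open circles for genes that did not pass and a line at each list's median. The median of the replication genes is 0.55 and 0.72, and every list holds genes on both sides of 0.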

How the data were processed

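RNA of 9 libraries in 3 groups of 3 was compared. The deposited expression values are in CPM, and the authors added 0.0001 to every value, as checked on the file. The authors' deposited comparison table gives a step-up FDR (an adjusted p-value) and the log2 ratio, per the file headers. It was made with DESeq2 in Partek 10 with the mouse build mm10, per the submitters' processing notes. No aligner, counter or strand setting is given in the sources used here. Coordinates and exon lengths came from GENCODE M21 (GRCm38), in which all 46 genes have the span that the files list.

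Genes reaching 1 CPM in at least 3 libraries (13096 of 16500, all 46 members included; 40 members reach 10 CPM in as many) were fitted together with limma 3.58.1 (R 4.3.3) on log2(CPM + 1), with trend and robust variance moderation and Benjamini-Hochberg adjustment, and called at adjusted p under 0.05. All 9 libraries entered each fit. Only 81.2% to 84.4% of values up to 1 CPM lay within 0.1 read of a whole number, so no count test was run. On data simulated for NFAT2-CA against Control (12937 genes tested), each log2 change was given to 50 genes. The fit recovered 19 of those with a change of 0.3, 46 at 0.6, all 50 at 1 and all 50 at 2, and made 8 false calls among 12737 unchanged genes. Far fewer genes were changed there than were called in the data. Its noise was independent between genes, and the changed genes were not drawn from the lowest ones. The simulation therefore does not give the error rate of the calls reported here. Python 3.11.15, pandas 2.3.3, NumPy 2.4.6 and matplotlib 3.10.9 were also used.

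The members and lists were chosen with earlier results of these data known. Mcm2 to Mcm7, Pcna, Cdc6, Cdt1, Gmnn and Cdc45 are given in every library, as are the 2 members of each of 8 role groups with the largest change in each comparison. Orc2 was added after its values were seen, as were Orc3 to Orc5, Cdk2, Rpa1, the levels of Lat and Cd3e and the overlap partners. So were Ccne2, Pold4, Pole3, Pole4, Polg and Polg2. From the other lists, the 2 called genes with the largest change are named. As alternatives, the pseudocount was set to 0.1 or 5, the filter was dropped or raised to 10 CPM, and values were scaled with TMM factors or quantile-normalized. The fit was also run on the 6 libraries compared, with a replicate block, and without each library. Part of the B cell marker list is not reported here.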

Additional observations from a re-analysis of the deposited data

How the results depend on the processing

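The limits are 3 libraries a group, unstated strand use and a table without reads. Against Control, 28 to 33 members were higher with NFAT2-CA and 38 to 39 with NFAT2-CARIT when single libraries were left out, while 2 to 4 and 4 were lower. Between the vectors, 15 to 25 were higher, and the lowest count came without NFAT2-CA replicate 3 or NFAT2-CARIT replicate 1. The medians then ran from 0.51 to 0.58, 0.71 to 0.78 and 0.18 to 0.28.

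With NFAT2-CA, 2 members were lower under TMM factors and 2 under quantile normalization, since Mcm2 and Pola2 did not pass, and the median was 0.36 at a pseudocount of 5 and 0.60 under TMM factors. With NFAT2-CARIT the median was 0.59 at a pseudocount of 5, 0.67 with the 10 CPM filter, 0.81 under TMM factors and 0.78 under quantile normalization. Between the vectors it was 0.19 at a pseudocount of 5 and 0.29 under quantile normalization.

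Values near 0 changed sign for 9 members, none of which had passed in that comparison: Wdhd1 with NFAT2-CA (-0.02, without NFAT2-CA replicate 1, to 0.08 over the libraries left out) and Mcm2 with NFAT2-CARIT (-0.04, without Control replicate 3, to 0.12). Between the vectors, signs changed for Pcna (-0.08 to 0.03, the latter without NFAT2-CARIT replicate 3) and Rfc3 (0.01 under TMM factors, 0.05 under quantile normalization, -0.08 to 0.07 over the libraries left out, with 0.07 without NFAT2-CA replicate 1 and 0.04 without NFAT2-CARIT replicate 2). The others were Rfc1 with NFAT2-CA (-0.02 to 0.12 over the alternatives), Gins3 (-0.09 to 0.12) and Pola2 (-0.09 to 0.02) with NFAT2-CARIT, and Orc2 (-0.09 to 0.04) and Rfc5 (-0.06 to 0.14) between the vectors. The cause of these shifts was not tested.

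Same-numbered libraries deviated together by correlations of -0.069 to 0.259, so the numbers were not taken as pairs. With a replicate block, 30 members were higher and 4 lower with NFAT2-CA, 39 and 4 with NFAT2-CARIT, and 23 and 2 between the vectors, where Chaf1b did not pass (adjusted p = 0.054).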

Other observations

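Polymerases outside the normal fork, mostly those of repair and of synthesis past damaged DNA, were called higher in shares near those of all genes. Of 14 tested, 5 rose and 3 fell with NFAT2-CA, and 5 rose and 5 fell with NFAT2-CARIT (median log2 0.10 and 0.00). That is 35.7% higher with each vector, against 29.0% and 29.2% of all genes tested, where 36.5% and 41.1% were lower. The 3 and 5 that fell were smaller shares than those 36.5% and 41.1%. The list also held Polg and Polg2, which encode the mitochondrial polymerase. Polg2 rose with both vectors and is among the 5, while Polg did not pass with either. Polq, the polymerase of end joining through short homologies, was at 2.76, 2.46 and 3.04 CPM in Control, 17.4, 13.7 and 18.6 with NFAT2-CA and 23.5, 24.8 and 31.4 with NFAT2-CARIT. No group of Polq overlapped another (log2 2.22 ± 0.13, limma adjusted p = 2.1e-10, and 2.87 ± 0.13, adjusted p = 6.9e-12). Primpol, which restarts synthesis beyond a block, rose with both vectors (log2 0.75 and 0.83), as did Polh, the polymerase that copies past ultraviolet damage (0.74 and 1.11). Rev3l, the catalytic subunit of the translesion polymerase zeta, and Poli fell with both vectors (-0.67 and -0.57 for Rev3l, -0.47 and -0.48 for Poli). The last pair was picked out after the values were seen.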
